A study of Arabidopsis thaliana with 8 samples.

Results

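The genes described here are nuclear genes of photosynthesis, measured in Arabidopsis thaliana roots: RCA, which encodes Rubisco activase, and the LHCB4 genes, which encode the light-harvesting protein CP29. They were taken from a list of 10 symbols (RCA, LHCB4.1, LHCB4.2, LHCB4.3, LHCB5, LHCB6, LHCB2.1, LHCB3, LHCA4 and GAPB) by matching each symbol and locus to array probesets annotated to 1 gene. The match found 4 of the 10, which are RCA, LHCB4.1, LHCB4.2 and LHCB4.3, among 13286 genes named in this way. The other 6 genes were not analysed here. Each of the 4 had 1 such probeset, so no choice between probesets was needed. Below, a gene is called measured if it was matched in this way. Of the 22746 probesets tested, 8730 had no gene in the annotation and 503 had several. A listed gene that is not measured here may therefore still have a probeset on the array.

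The study used 8 Affymetrix ATH1 arrays of root RNA in 4 groups of 2. The groups were wild-type Col-0 in control medium, Col-0 in phosphate-free (Pi-free) medium, the mutant per1 in control medium, and per1 in Pi-free medium. All plants grew on agar with control medium for 10 days and were then moved for 10 h to control or Pi-free medium, so the control plants were transferred as well. The mutant is labelled as being in the Col-0 ecotype, and the labels name a single mutant with no second allele or complemented line. They call the 2 arrays of a group biological replicates and do not give the number of plants behind each. The free-text sample description speaks of iron media in a pattern that cuts across the titles, and the titles were used.

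Photosynthesis in plants joins light reactions in the thylakoid membrane to carbon fixation in the stroma of the chloroplast. Light-harvesting proteins bind chlorophyll and pass excitation energy to the photosystems. CP29 is a minor antenna protein that sits between the core of photosystem II and its outer, trimeric antenna, and it is encoded in Arabidopsis by the LHCB4 genes. Rubisco activase removes inhibitory sugar phosphates from Rubisco, the enzyme that fixes carbon dioxide. Genes of this kind are known for high expression in green leaves and low expression in roots, although roots grown in light can form some chloroplasts.

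The array values were linear probeset signals that had been scaled to a 2% trimmed mean of 500 on each array. The ratio of the 3' to the 5' control probeset was 4.07 to 6.38 per array for actin and 1.22 to 1.61 for GAPDH. The part of these ratios in the results was not tested. The files give no detection calls, so signals were set beside 27 probesets for bacterial genes with no added transcript (unspiked controls), and the highest of these read 26.1 to 43.4 per array. Expected root markers were present: the root hair expansin genes EXPA7 and EXPA18 read 551 to 789.4 and 765.2 to 1369.8, and the root peroxidase gene AT4G26010 read 2907.7 to 5078.3. These were the 3 measured of 12 listed root markers. EXPA18 fell in per1 by 0.47 ± 0.08 (SE) on the log2 scale used below, averaged over the media, with an adjusted p of 0.03 from limma, a call kept in 1 of the 8 fits without 1 array. EXPA7 stood at -0.14 ± 0.11 and AT4G26010 at -0.25 ± 0.10. Their part in the results below was not tested. Of 12 listed shoot markers outside photosynthesis only FMA, a guard cell regulator, was measured. It read 4 to 32.2, above the highest control probeset on 1 of 8 arrays. With 1 shoot marker matched by the annotation used here, the share of green or shoot tissue was not followed by markers outside photosynthesis.

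RCA (AT2G39730, chromosome 2) was lower in per1 roots than in Col-0 roots in both media. In Col-0 its signal was 274.7 and 324.7 in control medium and 307.1 and 276.5 in Pi-free medium. In per1 it was 149.9 and 189.7 in control medium and 164.9 and 185.7 in Pi-free medium. The highest per1 array therefore lay below the lowest Col-0 array, and the per1 mean of 172.6 ± 18.6 (SD, n = 4) was 58.3% of the Col-0 mean of 295.8 ± 24.4 (SD, n = 4). All 8 arrays were above the highest unspiked control probeset. On the log2(signal + 16) scale, which is used for every change below and understates changes of low signals, RCA fell by 0.73 ± 0.13 (SE) in per1 averaged over the media, with a 95% interval of -1.02 to -0.43. The adjusted p from limma, with Benjamini-Hochberg adjustment over all 22746 probesets, was 0.043. Leaving out any 1 of the 8 arrays ended this call, with changes of -0.81 to -0.65 and an adjusted p of at least 0.074.

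LHCB4.1 (AT5G01530, chromosome 5) encodes one of the CP29 isoforms and showed a genotype difference of similar size. Its signal in Col-0 was 247.6 and 296.6 in control medium and 246.6 and 191.5 in Pi-free medium. In per1 it was 141.6 and 152.2 in control medium and 118.4 and 138.5 in Pi-free medium. Again no per1 array reached the lowest Col-0 array, and the per1 mean of 137.7 ± 14.1 (SD, n = 4) was 56.1% of the Col-0 mean of 245.6 ± 42.9 (SD, n = 4). The averaged difference was -0.76 ± 0.15 (SE), with a 95% interval of -1.08 to -0.43. It missed the threshold, with an adjusted p from limma of 0.052. That p was 0.041 with the replicate number as a block and 0.043 with a pseudocount of 1. Among probesets with a mean signal of at least 64 it was 0.011. With a pseudocount of 64, quantile normalization or no intensity trend LHCB4.1 was not called. Without 1 array its averaged difference ran from -0.84 to -0.67.

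LHCB4.2 (AT3G08940, chromosome 3), a further CP29 gene, lay close to the background readings in the mutant. Its signal in Col-0 was 50.3 and 84.7 in control medium and 48.7 and 90.4 in Pi-free medium. In per1 it was 27.4 and 48.8 in control medium and 9.6 and 26.3 in Pi-free medium. Of the 8 arrays 5 were above the highest unspiked control probeset of their own array. These were the 4 Col-0 arrays and the per1 control array of replicate 2. That per1 array, at 48.8, overlapped with the lowest Col-0 array, at 48.7. The averaged difference of -0.98 ± 0.29 (SE) had a 95% interval of -1.62 to -0.34 and missed the threshold, with an adjusted p of 0.16 from limma. The array numbered 2 was the higher one in all 4 groups, and within replicate numbers 1 and 2 the averaged differences were -0.97 and -0.98. The estimate followed the pseudocount, at -1.40 with 1 and -0.53 with 64. Without 1 array it ran from -1.16 to -0.80 averaged, from -0.93 to -0.32 in control medium and from -1.70 to -0.97 in Pi-free medium, and it was called in none of these fits.

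LHCB4.3 (AT2G40100, chromosome 2), the remaining CP29 gene, had the smallest estimate of the 4. Its signal in Col-0 was 65.3 and 61.1 in control medium and 60.1 and 88.3 in Pi-free medium. In per1 it was 50.6 and 46 in control medium and 70.2 and 57.6 in Pi-free medium, so that the genotypes overlapped in Pi-free medium. The averaged difference was -0.23 ± 0.20 (SE), with a 95% interval of -0.68 to 0.21 and an adjusted p of 0.66 from limma. Whether LHCB4.3 differed from the other LHCB4 genes in its genotype difference was not tested.

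**Figure D1:**
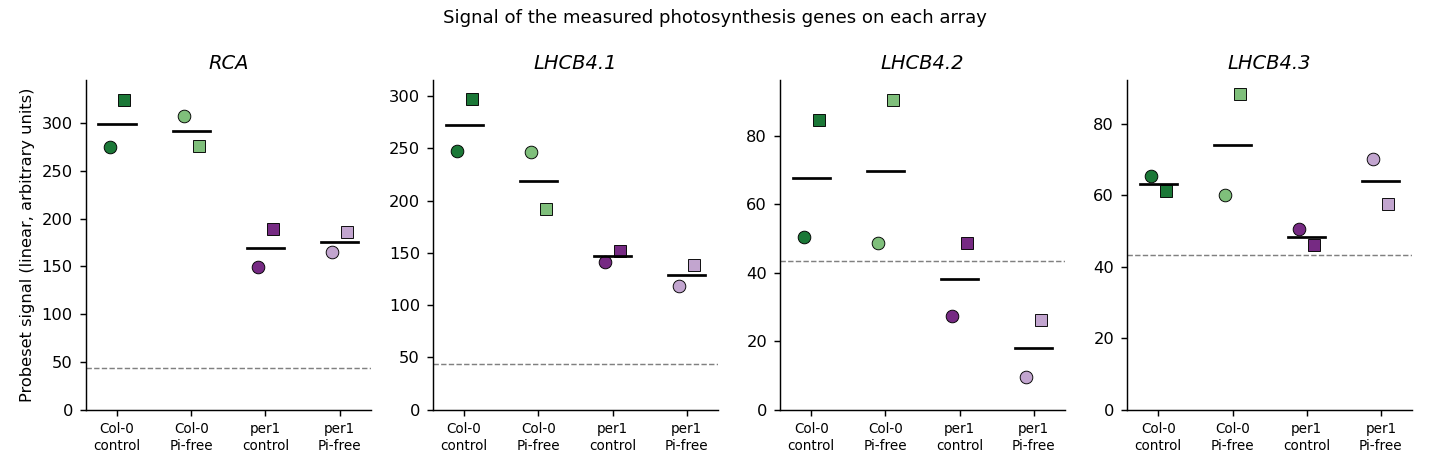
Linear probeset signal of RCA, LHCB4.1, LHCB4.2 and LHCB4.3 (vertical axes, each from 0 with its own range) on the 8 arrays by group, with circles for replicate 1, squares for replicate 2, bars for group means and a dashed line at 43.4, the highest unspiked control reading of any array. For RCA the 4 per1 arrays lie between 149.9 and 189.7 and the 4 Col-0 arrays between 274.7 and 324.7, while for LHCB4.2 and LHCB4.3 the genotypes overlap.

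Counted together, 1 of the 4 genes was called lower in per1 averaged over the media and 0 higher. Over all probesets 186 were called in that comparison (0.818%), 113 of them lower and 73 higher. The share called lower was 0.497% and the share called higher 0.321%. The median averaged difference of the 4 genes was -0.74, beside -0.01 for all probesets, and 4 of 4 estimates were below 0, beside 51.4% of all probesets. In 2 of the 4 genes all per1 arrays lay below all Col-0 arrays, which held for 4.79% of all probesets. The 4 genes and the lists below were chosen with earlier results of these data known. Their shares beside those of all probesets, here and below, are therefore descriptions and no tests. The 25S rRNA control probeset moved with replicate number and with genotype. Its readings were 47 to 99.7 on the arrays numbered 1 and 117.2 to 241.8 on those numbered 2. By genotype the ranges overlapped, at 47 to 143.4 on the Col-0 arrays and 88.4 to 241.8 on the per1 arrays. In each same-numbered pair of 1 medium the probeset was higher in per1. Its part in these differences was not tested. The 3 measured reference genes stood near 0 in the averaged comparison, AT4G34270 at 0.09 ± 0.13, AT2G28390 at -0.07 ± 0.10 and PEX4 at 0.03 ± 0.10 (SE). In whole-root RNA, fewer cells that express these genes and less transcript per cell cannot be told apart.

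In control medium, with no Pi withdrawal, the genotype difference was -0.77 ± 0.19 (SE) for RCA and -0.82 ± 0.21 for LHCB4.1. LHCB4.2 stood at -0.62 ± 0.40 and LHCB4.3 at -0.30 ± 0.28. Both per1 arrays lay below both Col-0 arrays for 4 of the 4 genes, which held for 22.3% of all probesets. Limma called 0 of the 4, with adjusted p of 0.23, 0.24, 0.66 and 0.78 in the same order, and 2 of the 4, RCA and LHCB4.1, had an unadjusted p under 0.05 as lower, as did 5.88% of all probesets. In this comparison 0.0572% of all probesets were called. The RCA signal in per1 was 56.7% of that in Col-0, and that of LHCB4.1 was 54%.

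In Pi-free medium the genotype difference was -0.69 ± 0.19 (SE) for RCA and -0.70 ± 0.21 for LHCB4.1. LHCB4.2 stood at -1.33 ± 0.40, with a per1 mean of 17.95 ± 11.8, with neither per1 array above the highest unspiked control, against 69.55 ± 29.5 in Col-0 (SD, n = 2), and LHCB4.3 at -0.16 ± 0.28. Both per1 arrays lay below both Col-0 arrays for 3 of the 4 genes, with LHCB4.3 as the exception, and the same held for 19.8% of all probesets. Limma called 0 of the 4, with adjusted p of 0.26, 0.28, 0.29 and 0.88 for RCA, LHCB4.1, LHCB4.2 and LHCB4.3, and 3 of the 4, LHCB4.3 again excepted, had an unadjusted p under 0.05 as lower, as did 5.34% of all probesets. Of all probesets 0.0308% were called. The root markers also had estimates below 0 in this medium, with EXPA18 at -0.71 ± 0.11, AT4G26010 at -0.52 ± 0.13 and EXPA7 at -0.30 ± 0.15, while in control medium they stood at -0.23 ± 0.11, 0.02 ± 0.13 and 0.02 ± 0.15. None of these 6 differences was called by limma, 2 had an unadjusted p under 0.05, and their part in the Pi-free values was not tested. The comparisons in the 2 media use different arrays, and the averaged comparison uses all 8.

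The response to 10 h without Pi was asked of each genotype in turn, and none of the 4 genes passed in either. RCA stood at -0.03 ± 0.19 (SE) in Col-0 and 0.05 ± 0.19 in per1, with 95% intervals of -0.45 to 0.39 and -0.37 to 0.47. Its Pi-free and control arrays overlapped in both genotypes. LHCB4.1 stood at -0.30 ± 0.21 in Col-0 and -0.18 ± 0.21 in per1, with intervals of -0.76 to 0.16 and -0.64 to 0.28. Both Pi-free arrays of LHCB4.1 read below both control arrays in each genotype, which held for 17.5% of all probesets in Col-0, 14.5% in per1 and 2.91% in both. LHCB4.2 stood at 0.02 ± 0.40 in Col-0 and -0.69 ± 0.40 in per1, where both Pi-free arrays lay below both control arrays. LHCB4.3 stood at 0.17 ± 0.28 in Col-0 and 0.31 ± 0.28 in per1, where both Pi-free arrays lay above both control arrays, as in 19.2% of all probesets.

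Limma gave adjusted p of 0.78 to 1 for these 8 Pi responses, and 0 of them had an unadjusted p under 0.05. Over all probesets 0.0615% were called in Col-0 and 0.0044% in per1, and 7.68% and 4.47% had an unadjusted p under 0.05. Averaged over the genotypes the responses were 0.01 ± 0.13 for RCA, -0.24 ± 0.15 for LHCB4.1, -0.33 ± 0.29 for LHCB4.2 and 0.24 ± 0.20 for LHCB4.3 (SE). None of these 4 passed, with adjusted p of 0.86 to 1, none had an unadjusted p under 0.05, and of all probesets 0.127% were called and 6.3% had such an unadjusted p. The difference between the genotypes in their Pi response was 0.08 ± 0.27 for RCA, 0.12 ± 0.29 for LHCB4.1, -0.71 ± 0.57 for LHCB4.2 and 0.14 ± 0.40 for LHCB4.3. Limma called 0 of these 4 interactions, with adjusted p of 0.93 to 0.99 and 0 at an unadjusted p under 0.05, while 0.00879% of all probesets were called and 5.3% had such an unadjusted p. The intervals of the interactions ran from -0.51 to 0.68 for RCA and from -1.99 to 0.57 for LHCB4.2, so the precision differed between the genes.

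**Figure D2:**
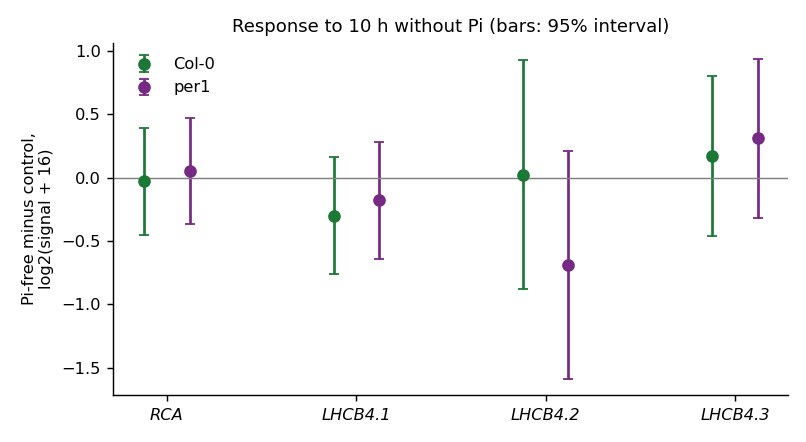
Change of RCA, LHCB4.1, LHCB4.2 and LHCB4.3 after 10 h in Pi-free medium against control medium (vertical axis, log2(signal + 16)) in Col-0 (green) and per1 (purple), with points for the estimates and bars for the 95% interval from limma. All 8 intervals include 0, and the widest are those of LHCB4.2.

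Other nuclear genes of photosynthesis were read from lists of 110 genes in 8 groups, of which 17 had a probeset with 1 gene. None of the 13 further light-harvesting genes and none of the 12 regulators and targeting factors were among them. Averaged over the media, limma called 0 of the 17, while 8 had an unadjusted p under 0.05 as lower in per1 and 1 as higher. Over all probesets those unadjusted shares were 7.48% and 6.64%. The median of the 17 was -0.34, with 12 of 17 estimates below 0. All per1 arrays lay below all Col-0 arrays in 6 of the 17 and above them in 1, beside 4.79% and 4.09% of all probesets.

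Averaged over the media, genes of the light reactions lay on the same side of 0 as RCA and LHCB4.1. Of 50 listed nuclear genes for antenna, photosystem, electron transport and ATP synthase proteins 6 were measured, all of them among the genes counted above. These had averaged differences of -0.70 to -0.36 and a median of -0.52, with 6 of 6 below 0, beside 51.4% of all probesets. Limma called 0 of the 6, while 5 had an unadjusted p under 0.05 as lower, beside 7.48% of all probesets. PSAE-1, a stromal subunit of photosystem I that helps ferredoxin dock, read 133.3 to 220.4 in Col-0 and 69.8 to 130 in per1. It stood at -0.70 ± 0.19 (SE) with an adjusted p of 0.13 from limma. Among probesets with a mean signal of at least 64 that p was 0.048, and no other alternative called PSAE-1. PSAN, a lumenal subunit of photosystem I, stood at -0.68 ± 0.19, with an adjusted p of 0.15. Its arrays overlapped between the genotypes, with 89.5 as the lowest in Col-0 and 91.3 as the highest in per1. ATPC1, the gamma subunit of the chloroplast ATP synthase, read 331.6 to 531.4 in Col-0 and 226.9 to 314.8 in per1, and stood at -0.52 ± 0.15.

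The 3 measured genes of photosystem II were PSB27, an assembly factor, at -0.52 ± 0.19 (SE), PSBY, a small membrane protein, at -0.47 ± 0.17, and PSBW, another small subunit, at -0.36 ± 0.22. For PSB27 and PSBY all per1 arrays lay below all Col-0 arrays, and for PSBW they overlapped widely, at 121.7 to 186.5 in per1 and 120.9 to 325.8 in Col-0. Their adjusted p from limma were 0.25, 0.26 and 0.52. In 4 of the 6 genes of the light reactions, PSAE-1, PSB27, PSBY and ATPC1, all per1 arrays lay below all Col-0 arrays, beside 4.79% of all probesets. By medium, the genotype differences of the 6 ran from -1.11 (PSAE-1) to -0.39 (ATPC1) in control medium, with a median of -0.49. In Pi-free medium they ran from -0.90 (PSAN) to 0.06 (PSBW), with a median of -0.51. PSAE-1 stood at -0.30 there and PSBW at -0.79 in control medium.

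The 3 measured of 19 Calvin-Benson cycle genes had averaged estimates below 0, and those of chlorophyll synthesis and photorespiration lay on both sides of it. Averaged over the media, limma called 0 of these 11 genes. At an unadjusted p under 0.05, 3 were lower and 1 higher, beside 7.48% and 6.64% of all probesets. SBPASE, sedoheptulose-bisphosphatase, read 66.1 to 81.4 in Col-0 and 40.8 to 54.1 in per1 and stood at -0.46 ± 0.19 (SE). PRK, phosphoribulokinase, which was above the highest unspiked control on 4 of 8 arrays, stood at -0.33 ± 0.26 with overlapping arrays, and AT1G56190, a phosphoglycerate kinase gene, at -0.07 ± 0.09. The 5 measured of 17 chlorophyll synthesis genes had a median of 0.09, with 3 estimates above 0 and 2 below. Among them CHLM, which methylates magnesium protoporphyrin, stood at -0.34 ± 0.13 without overlap between the genotypes. HEMB1, which acts in the early steps shared with heme synthesis, stood at 0.13 ± 0.08, and PORB, a protochlorophyllide oxidoreductase, at -0.30 ± 0.20.

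Of the 3 measured photorespiration genes, HPR, the peroxisomal hydroxypyruvate reductase, stood at -0.55 ± 0.21 (SE) and AT1G11860, a glycine cleavage subunit gene, at 0.03 ± 0.10. AT1G80380, the glycerate kinase gene, lay the other way. It read 243.5 to 338.1 in Col-0 and 341.3 to 403.7 in per1, an averaged difference of 0.30 ± 0.10 with an adjusted p of 0.23 from limma, short of the threshold.

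**Figure D3:**
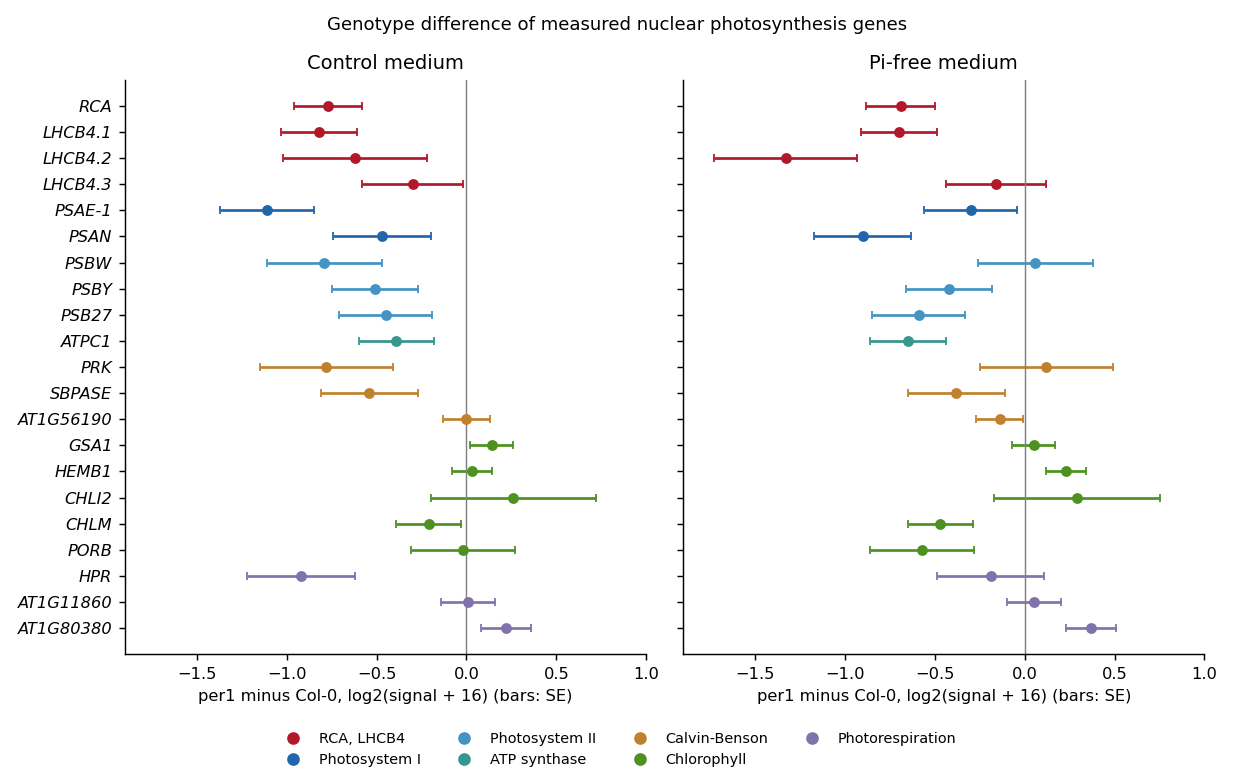
Genotype difference, per1 minus Col-0 on the log2(signal + 16) scale (horizontal axis), of RCA, the LHCB4 genes and 17 other measured nuclear photosynthesis genes in control medium (left) and Pi-free medium (right), with points for the estimates, bars for the SE and colours for the groups. The points of RCA and LHCB4.1 lie between -0.82 and -0.69 in both media, while the chlorophyll synthesis genes lie on both sides of 0.

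A further 6 nuclear genes carry the word thylakoid in their annotation. This list was added after the values had been seen. Limma called 0 of the 6 averaged over the media, and 3 had an unadjusted p under 0.05, all as lower in per1, beside 7.48% of all probesets. AT1G52220, annotated as CURT1C, a protein that bends thylakoid membranes, read 58.8 to 76.9 in Col-0 and 28.1 to 40.5 in per1. It was above the highest unspiked control on 6 of 8 arrays, the per1 Pi-free arrays being the exceptions. Its difference was -0.81 ± 0.19 (SE) with an adjusted p of 0.099 from limma. Over the alternatives that estimate ran from -1.06 to -0.47. TROL, a thylakoid rhodanese-like protein that binds the ferredoxin reductase, stood at -0.64 ± 0.18, and AT4G01150, annotated as CURT1A, at -0.33 ± 0.09. In these 3 genes no per1 array reached the lowest Col-0 array, beside 4.79% of all probesets. The other 3, TAAC, AT4G38100 and TAPX, had overlapping arrays and stood at -0.03 ± 0.09, 0.03 ± 0.08 and -0.32 ± 0.29. The 8 loci annotated for chlororespiration or the chloroplast NADH dehydrogenase-like complex, also added later, had a median of -0.03, with 0 called by limma, 1 at an unadjusted p under 0.05 and 0 without overlap between the genotypes. NdhS stood at -0.39 ± 0.26, and at -0.12 without Col-0 control replicate 2. NdhL, at -0.51 ± 0.23, and CRR28, at 0.32 ± 0.28, were above the highest unspiked control on only 2 and 3 of 8 arrays, and their estimates ran from -1.22 to -0.18 and from 0.11 to 0.61 over the alternatives.

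Photosynthesis genes encoded in the plastid genome had estimates mostly on the opposite side. The 43 measured psa, psb, pet, atp, ndh and rbcL genes had a median averaged difference of 0.26, with 34 of 43 above 0, beside 48.6% of all probesets. Limma called 0 of the 43, while 13 had an unadjusted p under 0.05 as higher and 1 as lower, beside 6.64% and 7.48% of all probesets. The smallest p was that of ndhH, for a subunit of the NADH dehydrogenase-like complex, which read 11.7 to 42.2 in Col-0 and 58 to 76.9 in per1, above the highest unspiked control on 6 of 8 arrays. Its difference was 0.96 ± 0.23 (SE), with an adjusted p of 0.1 from limma. The gene psbB, for the CP47 core antenna of photosystem II, read 82.7 to 146.9 in Col-0 and 157.4 to 321.9 in per1, a difference of 0.97 ± 0.24 (SE) for which limma gave an adjusted p of 0.11, and 0.032 after that filter on the mean signal. The gene petN, for a small subunit of the cytochrome complex, read 99.6 to 156.6 in Col-0 and 166.9 to 253.6 in per1. Its difference of 0.76 ± 0.19 had an adjusted p from limma of 0.11, and 0.036 after the filter. No other alternative called psbB or petN. The difference in direction between nuclear and plastid genes was not tested. The 25S rRNA control probeset was likewise higher in per1 in each same-numbered pair of 1 medium, and its part in the plastid values was not tested.

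**Figure D4:**
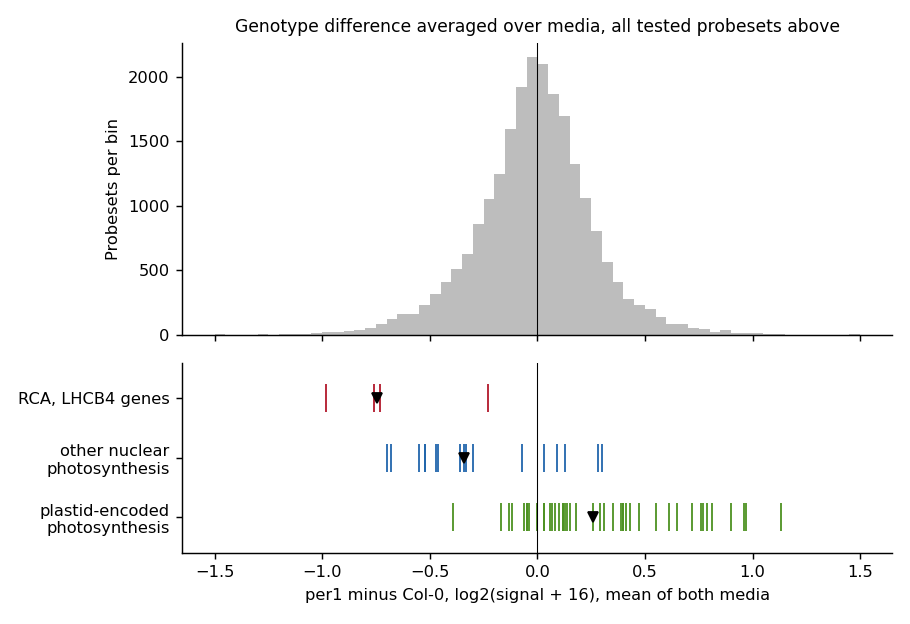
Histogram of the genotype difference averaged over the media (horizontal axis, log2(signal + 16)) for all 22746 probesets in bins of 0.05, with 9 estimates beyond 1.5 drawn in the end bins, above ticks for each measured photosynthesis gene and triangles at the group medians. The medians are -0.74 for RCA and the LHCB4 genes, -0.34 for 17 other nuclear genes and 0.26 for 43 plastid-encoded genes.

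The genes whose pattern over the 8 arrays was most like that of the 4 genes were looked up among 5966 other named genes. These were genes of at least middling brightness, whose mean log2 value passed that of the median probeset. Other photosynthesis genes of that brightness were kept in the search. The measure was Pearson's r with the mean of the 4 standardised profiles, which ran from 0.51 to 0.98 on the Col-0 arrays and from -0.92 to -0.58 on the per1 arrays. The 5 highest were AT1G01170, SCPL27 and AT5G02550, each with r = 0.98 over 8 arrays, and AT1G67870 and AT2G19130, each with r = 0.97. Since the arrays fell into the 2 genotypes, these values are given as a description with no p. SCPL27, a serine carboxypeptidase-like gene, read 486.5 to 558.9 in Col-0 and 307.7 to 358 in per1. AT1G01170 read 460 to 636.9 in Col-0 and 291.5 to 328.9 in per1. Pearson's r takes no account of size. The averaged genotype differences of the 5 genes ran from -0.84 for AT1G67870 to -0.20 for AT5G02550.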

How the data were processed

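Root RNA of 8 samples was hybridised to ATH1 arrays after biotin labelling, per the labels' protocols. The authors deposited linear intensities, 1 per probeset, with a 2% trimmed mean of 500 and a median of 186.2 to 197.1 on each array. The software behind them is not given in the sources used here. With 2 arrays per group, their number limits the precision. Of all probesets, 64 controls were left out and 22746 tested. In the platform annotation 13513 probesets carried 1 gene, of which 13436 matched a locus of TAIR10.1. Per gene the brightest probeset was used. No sequences or coordinates were used.

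Signals were transformed as log2(signal + 16) and the 4 group means were fitted together by limma 3.58.1 (R 4.3.3), leaving 4 residual degrees of freedom, with moderated variances that follow intensity. A call required a Benjamini-Hochberg adjusted p under 0.05 over all probesets. The fit was tested on simulated data. SE and intervals come from this fit, which pools the spread of the 4 groups.

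The genes and lists were chosen with earlier results of these data known. All 4 measured genes are named, and of each other list up to 3 genes with the smallest p in the averaged genotype comparison. Sets given in full are exceptions: the remaining genes with the word thylakoid, and AT1G01170 and SCPL27 among the 5 genes of most similar pattern. Alternatives were the pseudocount, a signal filter, quantile normalization, no intensity trend, the replicate number as a block, and each array left out.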

Additional observations from a re-analysis of the deposited data

How the results depend on the processing

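The genotype differences of RCA, LHCB4.1 and LHCB4.2 stayed below 0 in control medium, in Pi-free medium and averaged in every alternative run, and that of LHCB4.3 did so in control medium and averaged. Averaged over the media, 1 of the 4 genes was called. The count was 2 with a pseudocount of 1, a mean signal of at least 64 or the replicate block (RCA and LHCB4.1, adjusted p from limma of 0.029 and 0.041 with the block), 0 without an intensity trend, and 0 to 0 without 1 array. For RCA the adjusted p ran from 0.009 to 0.20. The median of the 4 genes moved to -0.57 averaged, -0.56 in Pi-free and -0.50 in control medium with a pseudocount of 64, and to -0.82 in control medium with a pseudocount of 1. The median Pi response in Col-0 was -0.17 with the signal filter, which keeps only RCA and LHCB4.1. Without 1 array the medians ran from -0.90 to -0.48 in control and -0.81 to -0.57 in Pi-free medium, -0.21 to 0.14 for the Col-0 Pi response and -0.02 to 0.15 for the interaction.

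Estimates near 0 changed sign without 1 array: LHCB4.3 in Pi-free medium (-0.39 to 0.07), the Col-0 Pi response of RCA (-0.15 to 0.08), LHCB4.2 (-0.34 to 0.38) and LHCB4.3 (-0.06 to 0.40), RCA in per1 (-0.11 to 0.20) and averaged (-0.07 to 0.08, and -0.01 with quantile normalization), and the interactions of RCA (-0.07 to 0.24), LHCB4.1 (-0.05 to 0.29) and LHCB4.3 (-0.09 to 0.37). The same held for the averaged genotype difference of AT1G11860 (-0.06 to 0.12), AT2G28390 (-0.16 to 0.03), AT4G34270 (-0.05 to 0.23), AT4G38100 (-0.03 to 0.10), PEX4 (-0.09 to 0.15) and TAAC (-0.08 to 0.02). That of AT1G56190 ran from -0.14 to 0.00, where a change of sign does not show at this rounding.

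Counts over all probesets, in the order genotype in control medium, in Pi-free medium and averaged, then Pi response in Col-0, in per1 and averaged, were 74, 80, 509, 40, 8 and 70 with the signal filter, beside 13, 7, 186, 14, 1 and 29. They were 42, 48, 357, 31, 4 and 49 with the replicate block and 0, 0, 0, 1, 0 and 2 without the trend. A pseudocount of 1 gave 20 and 16 for the first 2, and 26 and 2 for the Pi responses in Col-0 and per1, and a pseudocount of 64 gave 2 in Pi-free medium. The 2 interaction calls became 0 without the trend and 1 with a pseudocount of 64 or quantile normalization. Without 1 array the counts ran from 1 to 14, 0 to 0, 12 to 232, 3 to 4, 0 to 2, 2 to 27 and, for the interaction, 0 to 2. The count of 12 came without per1 Pi-free replicate 1 and that of 232 without Col-0 Pi-free replicate 1. These fits assume that the lone array of a group varies like the other groups. The cause was not tested. The block changed no other call among the 4 genes. Correlations over all probesets between the replicate differences of pairs of groups were 0.002 to 0.077, and the labels name nothing that same-numbered arrays share. On these grounds the fit with no block was kept. Against this, the 25S rRNA control probeset and LHCB4.2 read higher on the arrays numbered 2 in all 4 groups, so a shared replicate effect was not excluded. None of the 4 genes had a second probeset annotated to 1 gene to try. LHCB4.2 had the largest SE of the 4 genes.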
